A study of Mus musculus with 9 samples.

Results

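The 10 genes described here are *Nfe2l2*, *Keap1*, *Slc7a11*, *Gclc*, *Gclm*, *Gsr*, *Txnrd1*, *Srxn1*, *Nqo1* and *Hmox1*, which stand for the NRF2 and glutathione defence of SB28 mouse glioma cells. They were chosen by name from the 24421 gene entries of the deposited count table, and each name occurred there once. SB28 is a glioma line that carries GFP and luciferase and was implanted into the brains of C57BL/6 mice. The Control libraries came from tumors of vehicle-treated mice and the BAL libraries from tumors of mice given oral BAL101553 (lisavanbulin), a microtubule-disrupting prodrug that activates the spindle assembly checkpoint. The methods describe tumor cells sorted as CD45- CD11b- GFP+, whereas the labels of both groups read whole tissue. The methods also give a later day of collection for BAL tumors than for Control tumors, set to match tumor volume. Where that holds for these libraries, treatment and time of growth cannot be told apart. The third group, Astro, is labelled astrocytes, with BAL101553 as the treatment, and the study's text does not describe it. Each group has 3 numbered libraries. Fewer sequenced samples per group are stated in the study's text than the table holds, and the data statement names another deposit, so that how these libraries relate to the samples described there is not known. Nothing in the labels ties a library to a mouse, and the p-values given here measure the spread between libraries, which may be technical.

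NRF2, the product of *Nfe2l2*, is a transcription factor that KEAP1 holds in the cytoplasm and passes on for degradation. Electrophiles and oxidants modify cysteines of KEAP1, and the NRF2 that then accumulates binds antioxidant response elements together with small MAF proteins and raises the transcription of genes for glutathione synthesis, thiol reduction and detoxification. In the brain, astrocytes are known for high NRF2 activity and for supplying glutathione precursors to neurons, and in tumors the same genes are known for protecting cells from oxidative stress and ferroptosis.

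Antioxidant response elements are short, so the stretches before the transcription starts are shown for the members whose promoter holds such letters. RefSeq promoters on GRCm38.p6 were at hand for 7 of the 10 genes, *Nfe2l2*, *Keap1*, *Nqo1*, *Gclm*, *Slc7a11*, *Txnrd1* and *Srxn1*, with 9 starts in all because *Txnrd1* had 3. In the 250 bases before each start, both strands were searched for the core TGACNNNGC and for the NRF2-MAF letters TGANTCAGC, which overlap where the free base of the second is C. Either set of letters was found before 4 of the 9 starts, compared with 10.7% of the 32851 promoters of the table. Capitals mark the match on the printed strand, and a match in these letters is a description and not a binding site.
*Nfe2l2* (chr2:75704664-75704913, minus strand): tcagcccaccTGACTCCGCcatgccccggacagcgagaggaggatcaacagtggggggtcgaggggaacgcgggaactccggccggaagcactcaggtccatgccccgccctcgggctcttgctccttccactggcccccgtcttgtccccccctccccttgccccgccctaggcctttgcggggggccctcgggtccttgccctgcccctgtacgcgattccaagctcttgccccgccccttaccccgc
*Gclm* (chr3:122245307-122245556, plus strand): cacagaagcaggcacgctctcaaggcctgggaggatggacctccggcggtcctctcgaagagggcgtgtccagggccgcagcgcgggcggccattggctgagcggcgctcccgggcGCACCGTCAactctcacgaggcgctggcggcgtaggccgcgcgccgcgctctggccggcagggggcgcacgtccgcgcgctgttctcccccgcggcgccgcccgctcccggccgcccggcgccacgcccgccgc
*Txnrd1*, second start (chr10:82858956-82859205, plus strand): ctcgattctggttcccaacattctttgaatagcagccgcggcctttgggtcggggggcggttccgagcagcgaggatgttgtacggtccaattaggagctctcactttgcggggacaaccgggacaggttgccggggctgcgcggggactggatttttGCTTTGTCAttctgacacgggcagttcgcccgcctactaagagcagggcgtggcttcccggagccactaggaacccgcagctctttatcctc
*Srxn1* (chr2:152105274-152105523, plus strand): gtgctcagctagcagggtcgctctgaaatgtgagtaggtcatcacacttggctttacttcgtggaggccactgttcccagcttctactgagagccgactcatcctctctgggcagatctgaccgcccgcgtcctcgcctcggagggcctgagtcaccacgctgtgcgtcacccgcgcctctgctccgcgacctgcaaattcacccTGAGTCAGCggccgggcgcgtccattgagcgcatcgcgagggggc
The *Nfe2l2* match, TGACTCCGC, began 240 bases before the start and lay on the coding strand. The *Gclm* and *Txnrd1* matches lay on the opposite strand, where they read TGACGGTGC and TGACAAAGC. The *Srxn1* match, TGAGTCAGC, was the only one of the 9 windows with the NRF2-MAF letters, which 1.02% of all promoters held.

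Total counts lay between 24540452 and 28761388 in the Control libraries, between 26667789 and 34013875 in the BAL libraries and between 22919523 and 29230743 in the Astro libraries. Levels are in CPM (read counts relative to library size), scaled by edgeR's TMM over the 9 libraries. The 12 microglia and macrophage markers summed to 6.04 to 11.5 CPM in the Control and BAL libraries and to 483 to 1080 CPM in the Astro libraries. The 7 erythroid markers were listed at 0 in every Control and BAL library and summed to 0.925 to 3.02 CPM in Astro. Of these, 4 were at 0 in every Astro library too, so the zeros cannot show whether blood was absent. The 10 astrocyte markers summed to 13400 to 16400 CPM in the Astro libraries, with *Slc1a2*, *Slc1a3* and *Aqp4* at high levels, but the 6 oligodendrocyte markers summed to 10300 to 12700 CPM in the same libraries. The 7 endothelium markers summed to 217 to 259 CPM there, and in the test described below 5 were higher than in BAL and 1 was lower. The Astro libraries thus went against their label in part, with marker RNA of oligodendrocytes, myeloid cells and endothelium beside that of astrocytes. In the Control and BAL libraries the oligodendrocyte sum was 15.3 to 20.6 CPM.

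In BAL against Control, 1 of the 10 genes passed the quasi-likelihood test of edgeR, at a threshold of 0.05 for the adjusted p. This was *Gsr*, glutathione reductase, which fell. No member rose in this test, and 2 members, *Gsr* and *Slc7a11*, had an unadjusted p under 0.05. The exact test, DESeq2 and limma-trend each called *Gsr* lower and *Slc7a11* higher. Of the 12633 genes tested, 8.64% rose and 6.09% fell. The genes that rose made up 58.7% of those called with TMM and 77.4% with total library size. The levels of 5 members did not overlap between the groups (*Gclm*, *Slc7a11*, *Txnrd1*, *Gsr* and *Srxn1*), compared with 39.7% of all genes tested. The members' median log2 fold change was 0.07, and that of all genes tested was 0.02. The count of 1 member moved with the libraries used. It was 0 without Control 1, without Control 3, and without Control 3 and BAL 1, and 2 without Control 2, where *Slc7a11* was added.

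In Astro against BAL, 7 of the 10 genes fell (*Nfe2l2*, *Keap1*, *Nqo1*, *Hmox1*, *Txnrd1*, *Gsr* and *Srxn1*) and 2 rose (*Gclc* and *Slc7a11*). Of the 15314 genes tested, 46.3% rose and 38.9% fell, so that most genes differed between these 2 kinds of sample. The levels of 9 members did not overlap, as was true of 87.8% of all genes tested. The members' median log2 fold change was -1.45. The median over all genes tested was 0.18 with TMM and lay between 0.24 and 0.39 with the other scalings, and each fold change of this comparison can be read against that shift. The BAL libraries enter both comparisons. In such bulk samples, fewer cells of a type and less RNA per cell cannot be told apart.

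**Figure D1:**
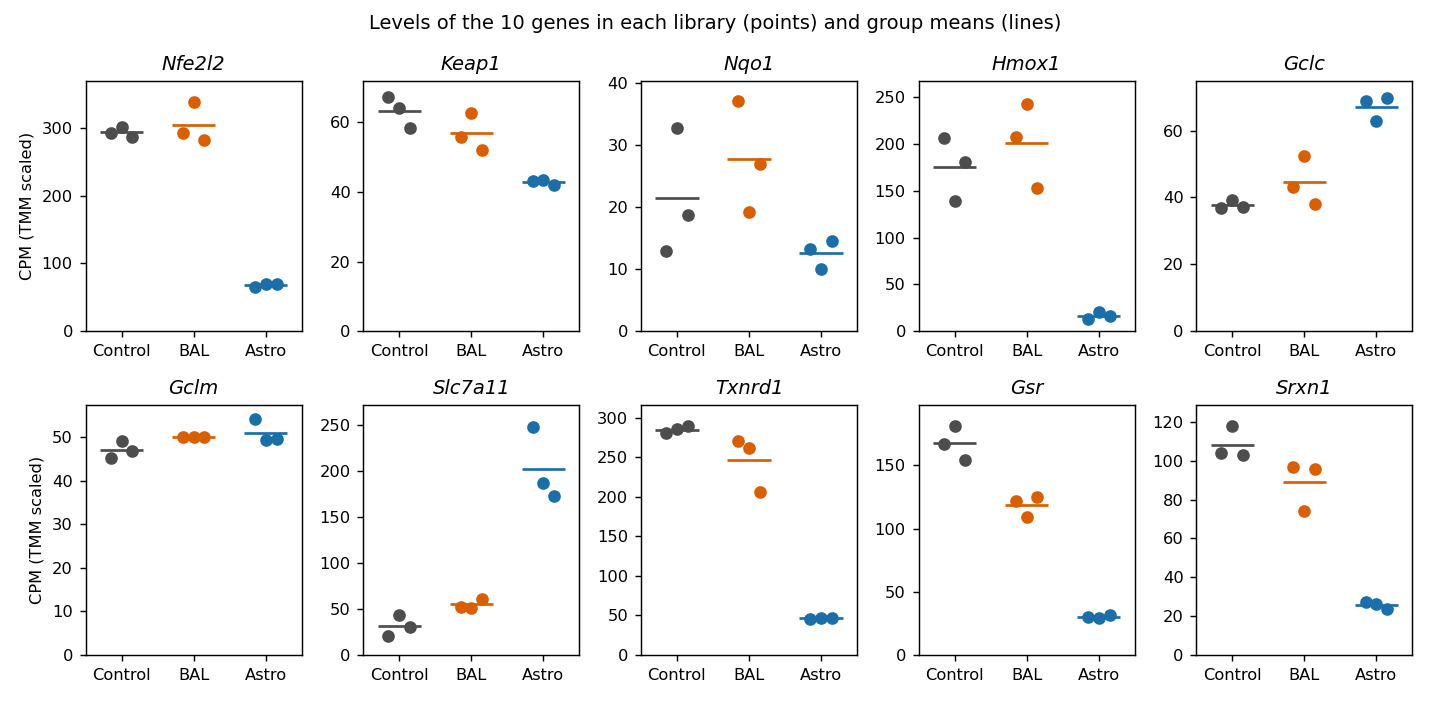
Each panel plots 1 gene, with CPM scaled by TMM on the vertical axis and the groups on the horizontal axis; points are the 3 libraries and lines the group means. *Gsr* separates BAL from Control downwards, *Slc7a11* upwards, and *Nfe2l2*, *Hmox1*, *Txnrd1*, *Gsr* and *Srxn1* are lowest in Astro.

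*Nfe2l2* (chr2:75675513-75704641, minus strand) encodes NRF2 itself. Its levels were 293, 302 and 287 CPM in Control 1 to 3, 293, 338 and 282 CPM in BAL 1 to 3, and 65.1, 69.2 and 69.1 CPM in Astro 1 to 3. Control and BAL overlapped, and every Astro library was far below both. The log2 fold change in BAL against Control was 0.06 (95% interval -0.17 to 0.28, SE 0.0984, adjusted p = 0.712), and it was -0.030 without BAL 2, the highest library. Between Astro and BAL it was -2.15 (SE 0.0935, adjusted p = 2.64e-07).

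*Keap1* (chr9:21229730-21239361, minus strand) encodes the cytoplasmic inhibitor of NRF2. Its levels were 67.2, 64.2 and 58.3 CPM in Control, 55.7, 62.7 and 52.2 CPM in BAL, and 43.3, 43.4 and 41.9 CPM in Astro. BAL 2 lay among the Control libraries, so these groups overlapped, and the log2 fold change was -0.15 (95% interval -0.39 to 0.10, SE 0.107, adjusted p = 0.368). Relative to BAL, *Keap1* fell by 0.39 on the log2 scale in Astro (SE 0.0873, adjusted p = 0.00305). This call was lost with total library size (adjusted p = 0.0669) and with at least 10 counts asked of every library (adjusted p = 0.112). A 510-base stretch of *Keap1* exons overlaps the antisense gene *Gm16754*, and whether the counting used strand was not stated. Per kilobase of merged exons, the ratio of *Keap1* to *Nfe2l2* was 0.174 ± 0.0107 (SD, n = 3) in Control, 0.151 ± 0.00231 in BAL and 0.512 ± 0.0243 in Astro. This RNA ratio was thus higher in every Astro library than in any SB28 library, and the proteins were not measured.

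The list of NRF2 partners and turnover factors holds 14 other genes, among them small MAF proteins, BACH repressors and parts of the CUL3 ligase. In BAL against Control 13 were tested, 1 rose and the other 12 did not pass the test. The gene that rose was *Syvn1*, a ubiquitin ligase of the endoplasmic reticulum that can act on NRF2, with a log2 fold change of 0.50 (SE 0.126, adjusted p = 0.0377). Its call was lost in 6 of the 18 alternatives. *Bach1*, a repressor that competes with NRF2 at *Hmox1*, was measured at 38, 38.5 and 28.7 CPM in Control and 59.2, 50.8 and 44 CPM in BAL. The groups did not overlap, and the log2 fold change of 0.55 (SE 0.157) missed the threshold with an adjusted p of 0.0514. *Bach1* passed it in 8 of the 18 alternatives, and the adjusted p lay between 0.0139 with DESeq2 and 0.283 without Control 3 and BAL 1. Of the 14, 10 fell and 3 rose in Astro against BAL, where 38.9% of all genes tested fell and 46.3% rose. *Maff*, a small MAF protein, fell from between 50.1 and 101 CPM in BAL to between 2 and 3.02 CPM. *Cul3*, the ligase scaffold to which KEAP1 binds, fell by 1.27 on the log2 scale (SE 0.0786), and *Bach1* fell by 0.87 (SE 0.155). *Nfe2l3*, a relative of NRF2, rose to between 27.7 and 35.4 CPM from at most 0.118 CPM in BAL, and was tested only through its Astro levels.

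*Slc7a11* (chr3:49892526-50443614, minus strand) encodes xCT, the cystine importer that supplies cysteine for glutathione. Its levels were 20.3, 43.2 and 30.7 CPM in Control, 52.5, 51.4 and 61.2 CPM in BAL, and 248, 187 and 173 CPM in Astro. All BAL libraries lay above all Control libraries, and all Astro libraries lay above both. The log2 fold change in BAL against Control was 0.82 (95% interval 0.26 to 1.37, SE 0.239), the largest of the members, with an unadjusted p of 0.00933 and an adjusted p of 0.0563. The threshold was passed in 7 of the 18 alternatives, and the adjusted p lay between 0.00738 with DESeq2 and 0.233 without Control 3 and BAL 1. Without Control 2, the highest Control library, the log2 fold change was 1.10 and the adjusted p was 0.0283. *Slc7a11* rose in Astro against BAL by 1.89 on the log2 scale (SE 0.153, adjusted p = 7.94e-06). *Slc3a2*, the heavy chain that partners xCT, was measured at 172 to 202 CPM in Control, 204 to 283 CPM in BAL and 285 to 324 CPM in Astro. Its log2 fold change in BAL against Control was 0.38 (SE 0.133, adjusted p = 0.0890), and in Astro against BAL it rose by 0.36 (SE 0.123, adjusted p = 0.0243). The *Slc3a2* call in Astro was lost in 5 of the 17 alternatives, with an adjusted p of up to 0.969.

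*Gclc* (chr9:77754535-77794485, plus strand) encodes the catalytic subunit of glutamate-cysteine ligase, the rate-limiting enzyme of glutathione synthesis. Its levels were 36.9, 39.3 and 37.2 CPM in Control, 43.1, 52.3 and 38 CPM in BAL, and 68.8, 62.8 and 69.6 CPM in Astro. BAL 3 lay within the Control libraries, and the log2 fold change was 0.24 (95% interval -0.06 to 0.55, SE 0.132, adjusted p = 0.235). *Gclc* rose in Astro against BAL by 0.61 on the log2 scale (SE 0.118, adjusted p = 0.00140), a call that was lost once a trend with exon length was removed (0.27, adjusted p = 0.0940).

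*Gclm* (chr3:122245557-122270732, plus strand) encodes the modifier subunit that lowers the substrate requirement of the same enzyme. Its levels were 45.3, 49.2 and 46.9 CPM in Control, 50, 50.1 and 50 CPM in BAL, and 54.3, 49.3 and 49.5 CPM in Astro. The BAL libraries sat just above the Control libraries without overlap, with a spread in BAL below the counting error, yet the log2 fold change was only 0.09 (95% interval -0.10 to 0.29, SE 0.0836, adjusted p = 0.471). Between Astro and BAL the log2 fold change was 0.04 (95% interval -0.14 to 0.22, SE 0.0776, adjusted p = 0.606). Its sign turned without Astro 1 (-0.0016) and with the exon length trend removed (-0.15), while 3 alternatives of scaling and filtering called it higher, with values of 0.22 to 0.27. Of the *Gclm* exons, 540 bases overlap *Gm17494* or *Gm6061*. Per kilobase, the ratio of *Gclm* to *Gclc* was 0.747 ± 0.0106 (SD, n = 3) in Control, 0.685 ± 0.108 in BAL and 0.456 ± 0.0262 in Astro.

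The list of cystine uptake and glutathione synthesis holds 12 further genes. In BAL against Control 9 were tested, 1 rose and 2 fell. *Chac1*, which degrades glutathione inside the cell and is a known target of the integrated stress response, rose from 27.1, 16.7 and 26.6 CPM to 42.5, 64.2 and 52.5 CPM (log2 fold change 1.18, SE 0.222, adjusted p = 0.0180). *Ggct*, which acts on the dipeptides that glutathione breakdown releases, fell from 87.7, 57.3 and 66.1 CPM to 37.3, 12.2 and 22.5 CPM (log2 fold change -1.55, SE 0.361, adjusted p = 0.0310). *Gss*, glutathione synthetase, which joins glycine in the last step of synthesis, fell from 38.5, 35.5 and 38 CPM to 29.8, 26.9 and 29.8 CPM (log2 fold change -0.37, SE 0.0988, adjusted p = 0.0447). The groups were apart for all 3 genes. The call for *Gss* was lost in 12 of the 18 alternatives, that for *Ggct* in 4 and that for *Chac1* in 3, among them in each case the fit without Control 3. Beside 46.3% of all genes tested that rose and 38.9% that fell, 8 of the 12 rose and 3 fell in Astro against BAL. Some of these, such as *Ggt5*, were tested only through their Astro levels, so that the filter fixed their rise. With at least 10 counts asked of every library, 8 were tested, of which 4 rose and 2 fell. *Cbs*, which opens transsulfuration from homocysteine towards cysteine, stood at 171 to 201 CPM in Astro and at 0.118 to 0.473 CPM in BAL. *Ggt5*, an extracellular glutathione-cleaving enzyme, stood at 14.9 to 20.3 CPM in Astro and at 0.276 CPM or less in BAL. *Chac1* went the other way, with 0.339 to 0.415 CPM in Astro, and *Gss* rose by 0.26 on the log2 scale (SE 0.0972, adjusted p = 0.0375). This *Gss* call was lost in 6 of the 17 alternatives, with an adjusted p of up to 0.664.

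*Gsr* (chr8:33652523-33698163, plus strand) encodes glutathione reductase, which restores glutathione from its disulfide with NADPH. Its levels were 167, 181 and 154 CPM in Control, 122, 109 and 125 CPM in BAL, and 29.7, 29.5 and 31.4 CPM in Astro. The 3 groups did not overlap, and *Gsr* was the one member that passed the threshold in BAL against Control, with a log2 fold change of -0.49 (95% interval -0.72 to -0.27, SE 0.0968, adjusted p = 0.0193). The fold change lay between -0.58 and -0.41 in the 18 alternatives. The adjusted p was 0.0600 without Control 1, 0.0559 without Control 3 and 0.109 without Control 3 and BAL 1. In Astro, *Gsr* fell by 1.96 on the log2 scale (SE 0.0895, adjusted p = 3.39e-07) relative to BAL.

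**Figure D2:**
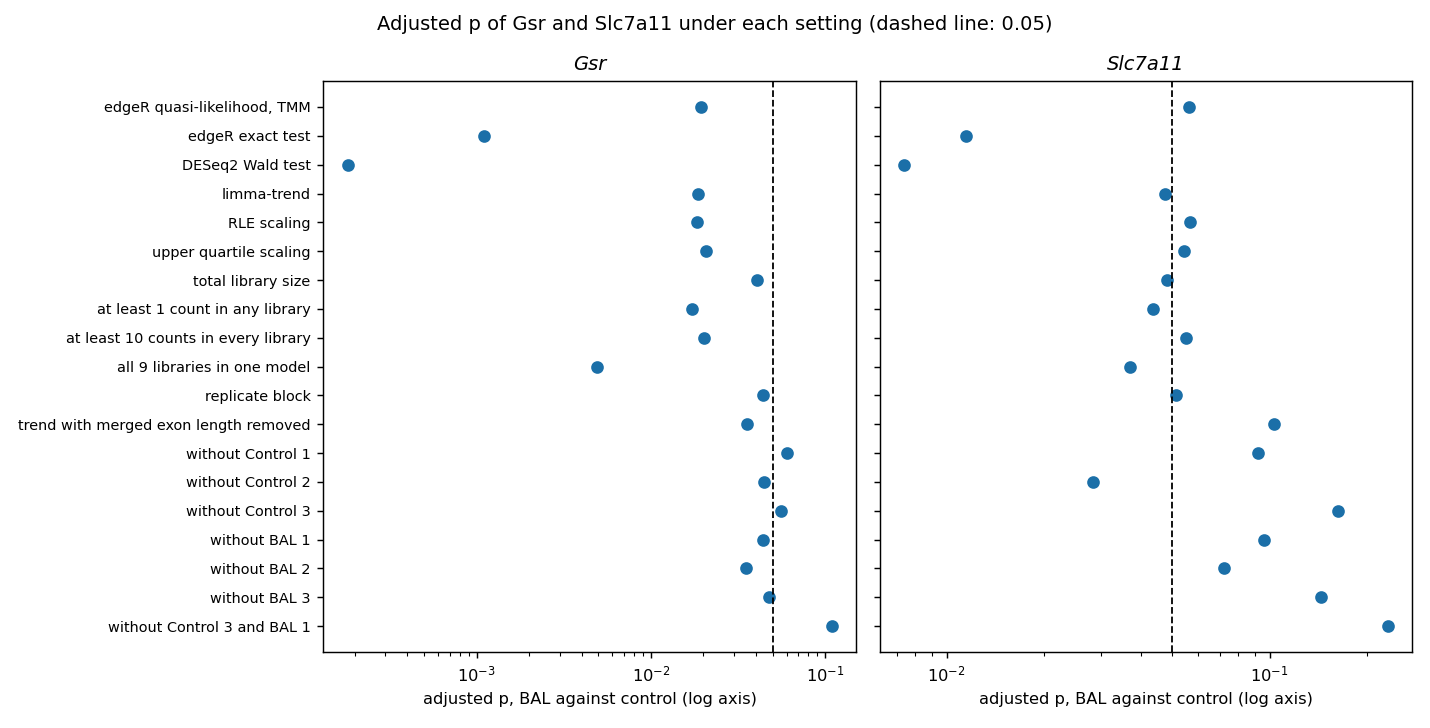
Points give the adjusted p of BAL against Control for *Gsr* (left) and *Slc7a11* (right) on a log axis, with each setting on its own line and the threshold of 0.05 dashed. *Gsr* is past the threshold in all but 3 alternatives, whereas *Slc7a11* lies on both sides of it, from 0.00738 to 0.233.

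*Txnrd1* (chr10:82833951-82897712, plus strand) encodes cytosolic thioredoxin reductase, which keeps thioredoxin reduced. Its levels were 280, 285 and 289 CPM in Control, 270, 262 and 206 CPM in BAL, and 44.9, 46.9 and 46.8 CPM in Astro. The BAL libraries were lower than Control without overlap, BAL 3 most, but the log2 fold change of -0.21 (95% interval -0.48 to 0.06, SE 0.117) did not pass the test (adjusted p = 0.251). In Astro, *Txnrd1* fell by 2.40 on the log2 scale (SE 0.117, adjusted p = 4.72e-07) relative to BAL.

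*Srxn1* (chr2:152105516-152111376, plus strand) encodes sulfiredoxin, which reduces overoxidized peroxiredoxins. Its levels were 104, 118 and 103 CPM in Control, 97, 74.3 and 95.9 CPM in BAL, and 27.4, 26.3 and 23.8 CPM in Astro. The groups again did not overlap, with BAL 2 lowest of the tumor libraries, and the log2 fold change in BAL against Control was -0.28 (95% interval -0.55 to 0.0021, SE 0.120, adjusted p = 0.149). Relative to BAL, *Srxn1* fell by 1.77 on the log2 scale in Astro (SE 0.131, adjusted p = 4.59e-06).

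Most of the genes of the pathway lists that fell in BAL against Control belonged to the lists around these reductases. In the list of the thioredoxin system and peroxiredoxins, which are thiol-dependent peroxidases and their electron donors, 5 of 14 genes fell and the other 9 did not pass the test, with a list median of -0.30 on the log2 scale. The 5 genes were *Prdx1*, *Prdx2*, *Prdx4*, *Prdx5* and *Txn1*. *Prdx2* fell from 310, 291 and 332 CPM to 193, 210 and 214 CPM (log2 fold change -0.59, SE 0.0923, adjusted p = 0.0117). *Prdx5* fell by 0.74 (SE 0.149, adjusted p = 0.0206) and *Prdx4* fell by 0.54 (SE 0.111, adjusted p = 0.0227). The call for *Prdx4* was lost in 5 of the 18 alternatives, that for *Prdx5* in 4 and that for *Prdx2* in 2. In the list of glutathione peroxidases, glutaredoxins and glyoxalases 3 of 12 fell and the other 9 did not pass, with a median of -0.30. *Gpx1*, the main cytosolic glutathione peroxidase, fell from 370, 354 and 341 CPM to 254, 225 and 252 CPM (log2 fold change -0.54, SE 0.0892, adjusted p = 0.0133), and *Esd* and *Glo1* were the others. The call for *Glo1* was lost in 8 of the 18 alternatives, that for *Esd* in 5 and that for *Gpx1* in 2. *Gpx4*, which reduces lipid peroxides and blocks ferroptosis, was measured at 187, 173 and 233 CPM in Control and 151, 152 and 155 CPM in BAL (log2 fold change -0.37, SE 0.118, adjusted p = 0.0716).

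NADPH, the electron donor of *Gsr* and *Txnrd1*, comes largely from the pentose phosphate pathway. In the list of NADPH supply 4 of 10 genes fell and the other 6 did not pass. These were *G6pdx*, the first enzyme of that pathway (log2 fold change -0.48, SE 0.101, adjusted p = 0.0242), *Pgls*, *Taldo1* (-0.59, SE 0.114, adjusted p = 0.0188) and *Nadk*, the kinase that makes NADP (-0.52, SE 0.136, adjusted p = 0.0408). The call for *Nadk* was lost in 10 of the 18 alternatives, that for *G6pdx* in 6 and that for *Taldo1* in 4. With total library size, *G6pdx* and *Taldo1* fell and *Me1*, malic enzyme, rose in this list, and in the thioredoxin list *Prdx2*, *Prdx4* and *Prdx5* fell. Over the 9 lists together, 7 of 104 genes tested rose and 15 fell, with a median of -0.03, but 11 rose and 8 fell with total library size. Over all genes tested, 8.64% rose and 6.09% fell. The count of 22 list genes called was 0 without Control 3, 3 without Control 1, 5 without BAL 3, 9 without BAL 1 and 14 without Control 2, beside 193, 458, 668, 1133 and 1260 genes called in all. Without Control 3 and BAL 1 it was 0, beside 1 gene called in all. Among the fits with 1 library left out, that without BAL 2 called the most list genes, fewer than the 22. Among all genes tested, those that fell were also short. The median length of merged exons was 4545 bases over all genes tested, 5997 bases for those that rose and 3272 bases for those that fell. Within the lists it was 3469 bases for the genes tested and 3050 bases for the 15 that fell. The 7 list genes that rose were shorter still, with a median of 1942 bases. With the length trend removed, 3 thioredoxin and peroxiredoxin genes, 3 genes of the glutathione peroxidase list and 2 NADPH genes fell. Marker sums moved with the groups as well. The astrocyte sum, mostly *Gja1*, was 947 to 984 CPM in Control and 694 to 813 CPM in BAL, and the endothelium sum, mostly *Cdh5*, was 740 to 868 CPM and 516 to 647 CPM. The astrocyte sum does not stand for its list. Of the 7 astrocyte markers tested, 5 had a positive fold change and 2 a negative one, with 1 called higher and 1 lower. Of the 6 endothelium markers tested, 1 was positive and 5 were negative, with 1 called lower. The part of length and of these markers in the falls was not tested.

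In Astro against BAL, the thioredoxin and peroxiredoxin list had 8 of 14 genes lower and 3 higher, the glutathione peroxidase list 6 of 12 lower and 5 higher, and the NADPH list 7 of 10 lower and 3 higher. Among all genes tested, 38.9% were lower and 46.3% higher, and the glutathione peroxidase list lay near these shares. *Txn1* fell by 2.70 on the log2 scale (SE 0.103) and *Gpx1* fell by 3.03 (SE 0.112), whereas *Gpx4* rose by 0.59 (SE 0.0754, adjusted p = 0.000125). The call for *Gpx4* was lost with the exon length trend removed (adjusted p = 0.646). *Sesn1* and *Sesn2*, sestrins that act with peroxiredoxins, went apart, with *Sesn1* higher by 2.56 (SE 0.132) and *Sesn2* lower (log2 fold change -2.36, SE 0.138). *Taldo1* rose by 1.79 (SE 0.110), while *G6pdx* fell by 1.25 (SE 0.0897) and *Pgd* fell by 1.69 (SE 0.105). In all these lists the direction thus differed among members.

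*Nqo1* (chr8:107388225-107403206, minus strand) encodes a quinone reductase that is widely read as an index of NRF2 activity. Its levels were 13, 32.8 and 18.7 CPM in Control, 37.1, 19.3 and 27 CPM in BAL, and 13.3, 10.1 and 14.6 CPM in Astro. Relative to its mean, *Nqo1* varied more among the libraries of each tumor group than any other member, and Control 2 lay above BAL 2 and BAL 3. The log2 fold change in BAL against Control was 0.38 with a wide interval (95% interval -0.43 to 1.18, SE 0.348, adjusted p = 0.477). Relative to BAL, *Nqo1* fell by 1.13 on the log2 scale in Astro (SE 0.251, adjusted p = 0.00310).

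*Hmox1* (chr8:75093621-75100589, plus strand) encodes heme oxygenase 1, which breaks down heme and is repressed by BACH1. Its levels were 206, 139 and 181 CPM in Control, 207, 243 and 153 CPM in BAL, and 13.2, 20.7 and 15.9 CPM in Astro. Control and BAL overlapped widely, and the log2 fold change was 0.20 (95% interval -0.27 to 0.66, SE 0.201, adjusted p = 0.518). In the Astro libraries *Hmox1* fell by 3.58 on the log2 scale relative to BAL (SE 0.223, adjusted p = 1.77e-06), more than any other member. The microglia and macrophage markers summed to at most 11.5 CPM in the tumor libraries and to at least 483 CPM in the Astro libraries, and their part in the *Hmox1* levels was not tested.

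Of the 10 further genes of heme and iron handling, 1 fell in BAL against Control and the other 9 did not pass. This was *Blvrb*, a biliverdin reductase, with 34.6, 39.1 and 39.9 CPM in Control and 25, 20.1 and 29.4 CPM in BAL (log2 fold change -0.60, SE 0.148, adjusted p = 0.0351), a call that was lost in 7 of the 18 alternatives. Of the 10, 5 fell and 4 rose in Astro against BAL, beside 38.9% and 46.3% of all genes tested. *Ftl1*, the ferritin light chain, fell by 2.25 (SE 0.102), although its reads can be shared with near-identical copies. *Slc48a1*, a heme transporter, rose by 1.96 (SE 0.195) and *Fech*, which inserts iron into heme, by 1.07 (SE 0.110).

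Among 16 other detoxification genes known to be induced by NRF2, 15 were tested, 2 rose in BAL against Control and the other 13 did not pass. *Ephx1*, microsomal epoxide hydrolase, rose from 25.3, 33.8 and 31.6 CPM to 51.7, 43.9 and 57.2 CPM (log2 fold change 0.76, SE 0.142, adjusted p = 0.0179). *Aldh3a1*, an aldehyde dehydrogenase, rose from at most 1.79 CPM to between 2.49 and 4.41 CPM (log2 fold change 1.41, SE 0.378, adjusted p = 0.0441). The call for *Aldh3a1* was lost in 6 of the 18 alternatives and that for *Ephx1* in 4. Of the 15, 11 fell and 4 rose in Astro against BAL, where 38.9% of all genes tested fell and 46.3% rose. *Akr1b8*, an aldo-keto reductase, fell from 114 to 127 CPM in BAL to 2.1 to 2.94 CPM, *Trim16* fell by 3.80 (SE 0.207), and *Abcc1*, an exporter of glutathione conjugates, fell by 2.54 (SE 0.203).

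The glutathione transferases, which attach glutathione to electrophiles, went the other way in the Astro libraries. Of 20 tested in Astro against BAL, 15 rose and 4 fell, with a list median of 3.09 on the log2 scale. Over all genes tested, 46.3% rose and 38.9% fell. Some of the 20 had almost no reads in BAL and were tested only through their Astro levels, so that the filter fixed their rise. With at least 10 counts asked of every library, 15 were tested, of which 12 rose and 3 fell. *Gstm1* stood at 599, 511 and 649 CPM in Astro and at 49.4, 51.8 and 56.4 CPM in BAL (log2 fold change 3.49, SE 0.122). *Gstm7* rose from at most 2.19 CPM to between 83.7 and 92.8 CPM, and *Gsto1* fell from at least 349 CPM to at most 14.5 CPM. In BAL against Control 16 were tested, 2 rose and the other 14 did not pass. These were *Gstm1* (log2 fold change 0.67, SE 0.180, adjusted p = 0.0442) and *Gstm2* (1.10, SE 0.275, adjusted p = 0.0370). The call for *Gstm1* was lost in 6 of the 18 alternatives and that for *Gstm2* in 5. Transferase genes have near-identical copies that can share reads, so these values are uncertain.

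Superoxide dismutases and catalase feed hydrogen peroxide into and remove it from the same system. Of 5 genes, 1 rose in BAL against Control and the other 4 did not pass. It was *Sod3*, the extracellular dismutase, which stood at a low level of 0.958, 2.17 and 1.24 CPM in BAL and at most 0.379 CPM in Control (log2 fold change 2.46, SE 0.546, adjusted p = 0.0275). This call was lost in 4 of the 17 alternatives that tested the gene. *Sod3* was tested only through its BAL levels, so that the filter fixed its rise. With at least 10 counts asked of every library it was left out. Relative to BAL, 4 of the 5 rose in Astro, beside 46.3% of all genes tested, and 1 did not pass. *Sod3* led them at 106 to 112 CPM, with *Cat* higher by 0.53 (SE 0.0793) and *Sod2* by 0.49 (SE 0.103) on the log2 scale. The call for *Cat* was lost in 1 of the 17 alternatives (adjusted p = 0.255).

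**Figure D3:**
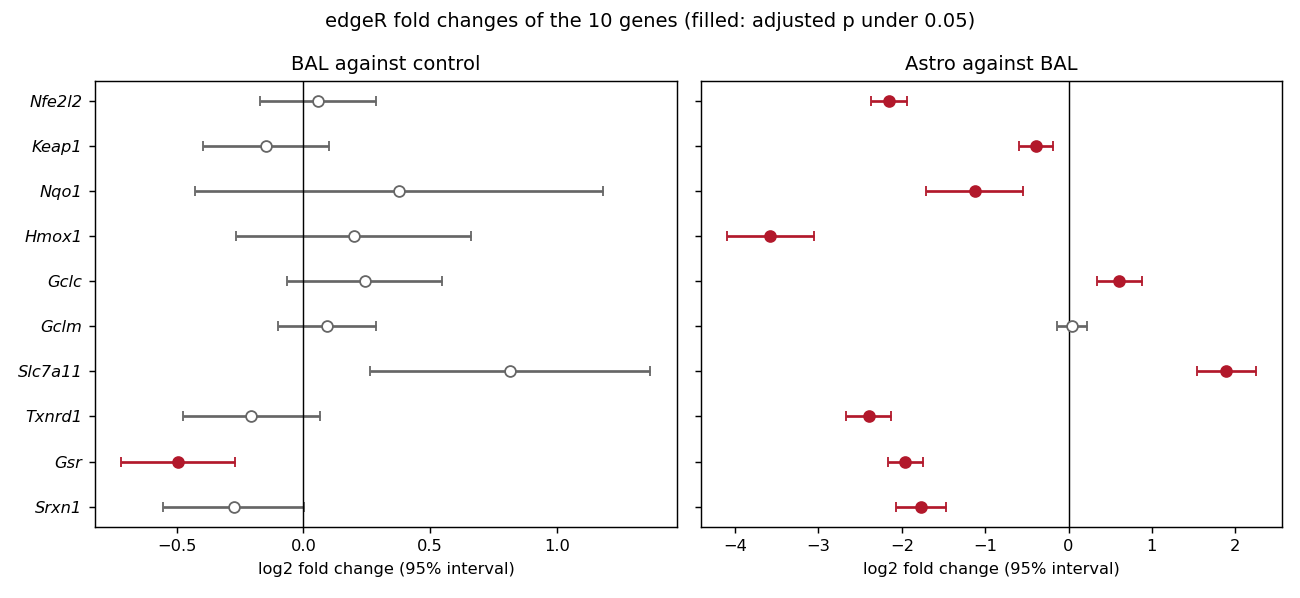
Log2 fold changes of the 10 genes with their 95% intervals are plotted for BAL against Control (left) and Astro against BAL (right), and filled points passed the threshold. *Gsr* alone is filled on the left, and on the right all but *Gclm* are, with *Hmox1* at -3.58 and *Slc7a11* at 1.89.

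**Figure D4:**
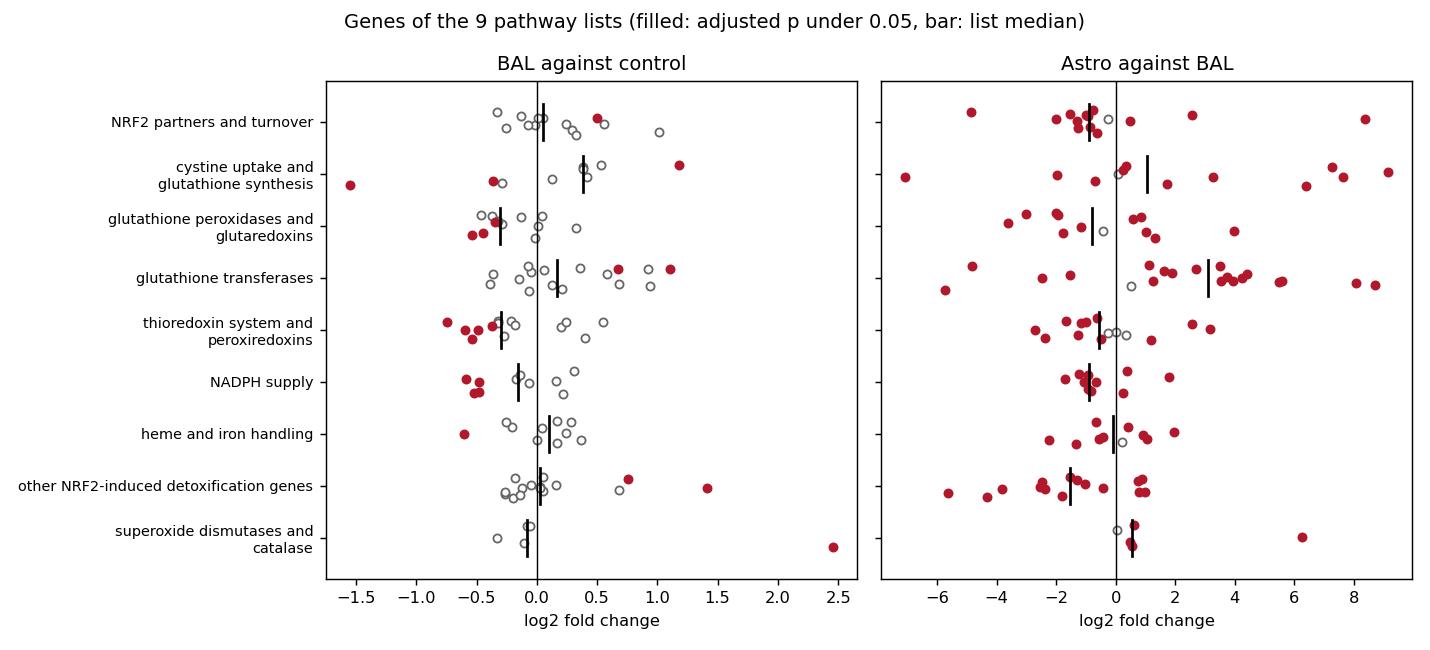
Each point is a gene of the 9 pathway lists, with its log2 fold change on the horizontal axis, filled where the adjusted p was under 0.05, and bars give the list medians. On the left the filled points of the thioredoxin, glutathione peroxidase and NADPH lists all lie below 0. On the right the glutathione transferases have the highest median, 3.09, and some of them were tested only through their Astro levels.

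Between genes, levels can be compared only per length. Per kilobase of merged exons, the order in Control was *Hmox1*, *Nfe2l2*, *Gsr*, *Txnrd1*, *Srxn1*, *Nqo1*, *Keap1*, *Gclc*, *Gclm* and *Slc7a11*, and it was the same in BAL. Means ran from 100 ± 19.6 CPM per kilobase (SD, n = 3) for *Hmox1* to 2.25 ± 0.823 for *Slc7a11* in Control, and from 115 ± 25.8 to 3.95 ± 0.387 in BAL. In both groups the libraries of *Hmox1* and *Nfe2l2* overlapped, as did those of *Txnrd1* and *Srxn1* and those of *Nqo1* and *Keap1*. In BAL those of *Keap1* and *Gclc* overlapped too, and the other neighbours were apart. In Astro the order was *Nfe2l2*, *Gclc*, *Slc7a11*, *Gsr*, *Hmox1*, *Srxn1*, *Keap1*, *Nqo1*, *Gclm* and *Txnrd1*, within a narrow span from 17.9 ± 0.613 to 6.52 ± 0.157 CPM per kilobase. Here *Slc7a11* was apart from *Gsr* below it and *Gclm* from *Txnrd1*, and all other neighbours overlapped. *Slc7a11*, the last of the members in the tumor libraries, was thus the third in the Astro libraries, and *Txnrd1* moved from the fourth place to the last. These places rest on the merged exon lengths, 13922 bases for *Slc7a11*, and the annotation used in counting is not known. The ratio of *Srxn1* to *Txnrd1* per kilobase was 0.954 ± 0.0754 in Control, 0.928 ± 0.229 in BAL and 1.41 ± 0.127 in Astro.

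**Figure D5:**
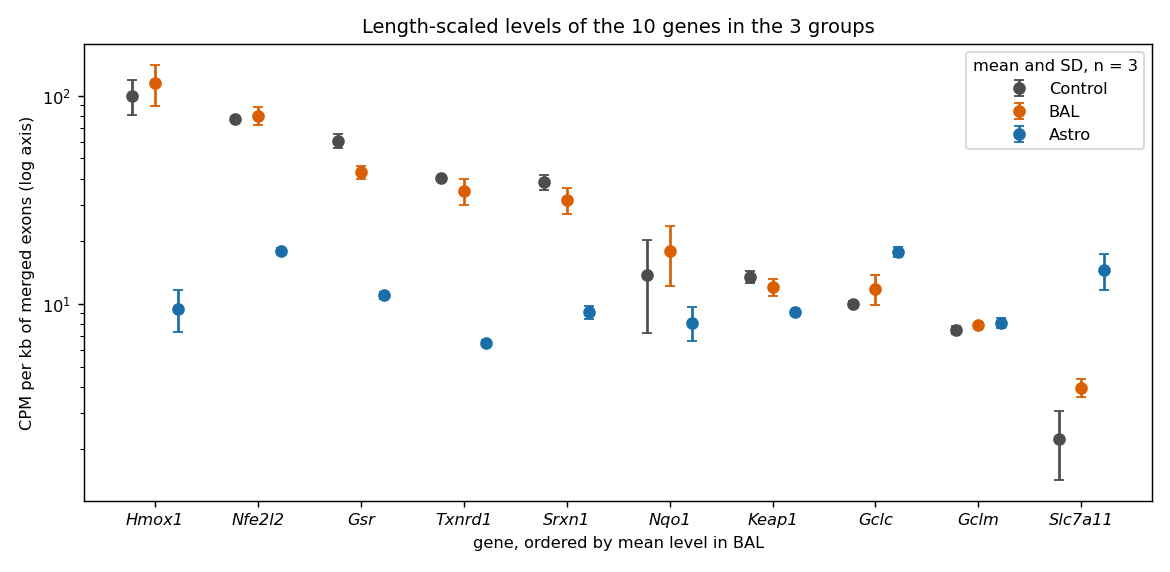
Means and SD of 3 libraries are plotted in CPM per kilobase of merged exons on a log axis, with the genes ordered by their mean in BAL. Control and BAL share 1 order from *Hmox1* to *Slc7a11*, and in Astro the genes lie closer together, with *Gclc* and *Slc7a11* above their tumor levels.

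For 3 members, the genes with the most similar pattern over the 9 libraries were taken as those with the smallest root-mean-square difference of centred log2 CPM among 14308 candidates. For *Nfe2l2* these were *Nop16* (0.058), *Ttc13* (0.0608) and *Grn* (0.0702), beside a range of 2.37 of *Nfe2l2* itself. For *Hmox1* they were *Rrm2* (0.204), *Dgkh* (0.216) and *Sigirr* (0.217), beside a range of 4.19. For *Slc7a11* they were *Sardh* (0.214), *Fsd1l* (0.220) and *Pmp22* (0.223), beside a range of 3.61. The 3 members were apart between Astro and the tumor libraries, and 87.8% of all genes tested were apart between Astro and BAL. This step enters each difference, and likeness within the tumor libraries alone was not tested.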

How the data were processed

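The study's methods describe stranded libraries, reads of 50 bases that the authors mapped with TopHat, quality control with PicardTools and counting with HTSeq and featureCounts. They are given for another deposit and fewer samples per group, so that they may not hold in full for these libraries. The submitters' processing notes for these libraries name TopHat, HTSeq 0.6.1 and the build mm10. Which counter made the table, its gene annotation, its use of strand and its treatment of shared reads are not given in the sources used here. The deposited values are raw counts of reads for each gene in 9 libraries, and every column belongs to 1 of them. The spread between libraries was above the counting error in 27 of the 30 pairs of a member and a group, and below it for *Gclm* in BAL and for *Keap1* and *Txnrd1* in Astro. Spreadsheet dates replace 27 gene names, which take no more than 0.440% of any library and stayed in the tests.

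The counts were tested with edgeR 4.0.16 in R 4.3.3 (filterByExpr, TMM, quasi-likelihood test, two-sided, Benjamini-Hochberg adjustment over all genes tested, threshold 0.05), and a fit held only the 2 groups compared. DESeq2 1.42.0 and limma 3.58.1 (limma-trend, prior count 2) were alternatives, besides other scalings and filters, a block on the replicate number, libraries left out and 1 model over all 9 libraries. A fit corrected for exon length was added after the data were seen. An SE is the log2 fold change over the root of its F statistic. Exon lengths and positions came from GENCODE on GRCm38. The tests were checked on simulated data.

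Groups came from the labels. The members, gene lists and alternatives were chosen with earlier results of these data known. All 10 members are named, with up to 3 genes of each list that passed the threshold with the lowest adjusted p in each comparison. *Bach1*, *Gpx4*, *Gss* and *Slc3a2* are named always, as are the 3 genes most like *Nfe2l2*, *Hmox1* and *Slc7a11*. *Txn1*, *Prdx1*, *Pgls* and *Me1* in BAL against Control, and the markers named, were chosen after their values were seen.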

Additional observations from a re-analysis of the deposited data

How the results depend on the processing

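In BAL against Control, the directions and calls of the 10 members gave 180 values over 18 alternatives, of which 169 kept the call and direction, 3 lost it (all *Gsr*), 7 gained it (all *Slc7a11*) and 1 turned, *Nfe2l2* without BAL 2 (-0.030, beside up to 0.11 with another library left out). The members called were 2 with the exact test, DESeq2, limma-trend, total library size, at least 1 count in any library and all 9 libraries in 1 model, 0 without Control 3 and BAL 1, and between 0 and 2 with 1 library left out. Genes called in all rose from 1860 to 2832 with DESeq2 and 3022 with all 9 libraries in 1 model, and were 1 without Control 3 and BAL 1 and between 193 and 1712 with 1 library left out. Pathway genes called were 0 without Control 3 and BAL 1 and between 0 and 18 with 1 library left out. In Astro against BAL, 162 of 170 values for the members kept call and direction, 3 lost it, 3 gained it and 2 turned, both *Gclm* (-0.0016 without Astro 1, up to 0.078 with another library left out, and -0.15 with the length trend removed). The members' median moved from -1.45 to -1.27 with upper quartile scaling, -1.24 with total library size, -1.22 with at least 10 counts in every library and -1.95 with the length trend removed. Where the cause is not shown by the alternative itself, it was not tested.

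Libraries with the same number did not deviate together in every pair. Correlations of their deviations from the group means were 0.142, 0.004 and 0.15 for numbers 1 to 3 in BAL and Control and 0.008, 0.069 and 0.054 in Astro and BAL. Libraries with unlike numbers were not correlated for reference, so whether a shared number marks a pair or a batch is not known. With the replicate number as a block, 1371 genes, 17 pathway genes and 1 member (*Gsr*, adjusted p = 0.0441) were called in BAL against Control. Depth limits *Nfe2l3*, *Ggt5* and *Cbs* in BAL and *Sod3* in Control, which had few reads there.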
